A study of Homo sapiens with 12 samples.

Results

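The genes described here are CD44 and 9 genes that make, cut or bind hyaluronan, the large sugar polymer of the pericellular matrix. They were taken by symbol as a fixed list of 10 genes out of the 58381 genes counted in Hs578T and MDA-MB-231 cells. All 10 had a row in the count table, and all 10 were among the 15836 genes tested, which needed over 1 CPM (counts scaled to library size) in at least 2 of the 12 libraries and exons of 300 nt or more.

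Hyaluronan is made at the plasma membrane by the synthases HAS1, HAS2 and HAS3, which join UDP-glucuronic acid and UDP-N-acetylglucosamine and push the growing chain out of the cell. Chains are cut at the surface and in lysosomes by the hyaluronidases HYAL1 and HYAL2 and by the proteins CEMIP and CEMIP2, while CD44 is the main receptor that holds and takes up hyaluronan on tumor cells. HMMR, also called RHAMM, binds hyaluronan too, and inside the cell it is a protein of the mitotic spindle.

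Hs578T and MDA-MB-231 are human triple negative breast cancer cell lines, and each was measured as CD44 WT and CD44 KO cells, with 3 RNA-seq libraries in each of the 4 groups. All groups carried a lentiviral Cas9 that doxycycline induces. CD44 KO cells were transfected with guides against exons 1 and 5 of CD44 and sorted as live, CD29-positive and CD44-negative, and CD44 WT cells received the transfection reagent without guides and were sorted as CD29-positive and CD44-positive. The cells were kept in low serum for a day before RNA was extracted. Each group is a sorted population and not a clone, the control carries no guide, and the sources used here do not say whether replicate libraries were grown separately, so p-values may measure technical spread only.

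Total counts ranged from 10257586 to 19725543 per library. The mesenchymal markers VIM and ZEB1 and the keratins KRT8 and KRT18 were expressed in all 4 groups. Of the receptors whose proteins triple negative tumors lack, PGR had 0 counts in every library, ESR1 had group means of 0.771 and 0.928 CPM in Hs578T and 1 count in all in MDA-MB-231, and ERBB2 RNA had group means from 61.9 to 94.5 CPM. EPCAM and KRT19 were detected at 0.237 CPM or less on average in Hs578T and at 16.8 CPM or more in MDA-MB-231. CDH1, also an epithelial marker, was low in all groups and went the other way. It had 0.658 and 0.459 CPM in Hs578T CD44 WT and CD44 KO and 0.311 and 0.0859 CPM in MDA-MB-231. The endothelial marker PECAM1 had 11.6 and 13.9 CPM in Hs578T and 2.02 and 2.59 CPM in MDA-MB-231. For CDH5 and LYVE1, also endothelial markers, the highest group means were 1.08 and 0.0556 CPM. ITGB1, which encodes the sorting marker CD29, had group means from 588 to 900 CPM. Of the leukocyte markers CD3E, CD14 and CD68, none reached a group mean of 1 CPM, and PTPRC, which encodes CD45, had 3.78 CPM in Hs578T CD44 KO and at most 0.369 CPM in the other groups. In RNA from whole populations, fewer cells that express a gene and less RNA per cell cannot be told apart.

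In GRCh38, CD44 (ENSG00000026508.18) spans bases 35138870 to 35232402 of chromosome 11, plus strand. The exons that the guides were aimed at are shown to place the edit in the coding sequence of the receptor. They were read from GRCh38 with the exon borders of the MANE transcript in GENCODE version 44, which has 18 exons. Capitals mark coding exon bases and lower case marks the 10 adjoining intron bases. In exon 1 the 67 coding bases at chr11:35139304-35139370 begin with the start codon, and exon 5 at chr11:35189835-35190065 is coding over all 231 bases.
CD44 exon 1, coding part: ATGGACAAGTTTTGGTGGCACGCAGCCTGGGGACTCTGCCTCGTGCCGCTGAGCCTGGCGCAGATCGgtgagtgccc
CD44 exon 5: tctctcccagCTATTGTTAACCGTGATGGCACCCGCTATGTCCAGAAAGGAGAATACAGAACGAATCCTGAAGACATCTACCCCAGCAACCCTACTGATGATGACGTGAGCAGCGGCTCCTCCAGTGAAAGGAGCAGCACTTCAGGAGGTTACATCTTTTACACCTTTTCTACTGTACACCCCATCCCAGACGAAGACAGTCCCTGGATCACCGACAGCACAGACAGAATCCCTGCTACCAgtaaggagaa

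CD44 RNA fell in the CD44 KO cells of both lines, and further in Hs578T. In Hs578T its normalized level was 527, 494 and 501 CPM in the CD44 WT libraries and 28.3, 28.6 and 24.9 CPM in the CD44 KO libraries. In MDA-MB-231 it was 362, 363 and 360 CPM in CD44 WT and 40.3, 32.4 and 30.0 CPM in CD44 KO. The groups stood far apart in each line, and the remaining RNA was 5.38% ± 0.406 of the CD44 WT mean in Hs578T and 9.47% ± 1.49 in MDA-MB-231 (mean ± SD, n = 3). On the log2 scale CD44 changed by -4.21 in Hs578T (95% interval -4.45 to -3.98, adjusted p = 3.16e-12) and -3.40 in MDA-MB-231 (95% interval -3.63 to -3.17, adjusted p = 4.57e-11), both by the quasi-likelihood test of edgeR, Benjamini-Hochberg adjusted over all genes tested. The change was 0.81 lower on the log2 scale in Hs578T, and this difference passed the threshold used throughout, an adjusted p of at most 0.01 (-0.81, 95% interval -1.12 to -0.51, adjusted p = 0.00198). The counts do not tell edited from unedited CD44 transcripts.

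**Figure D1:**
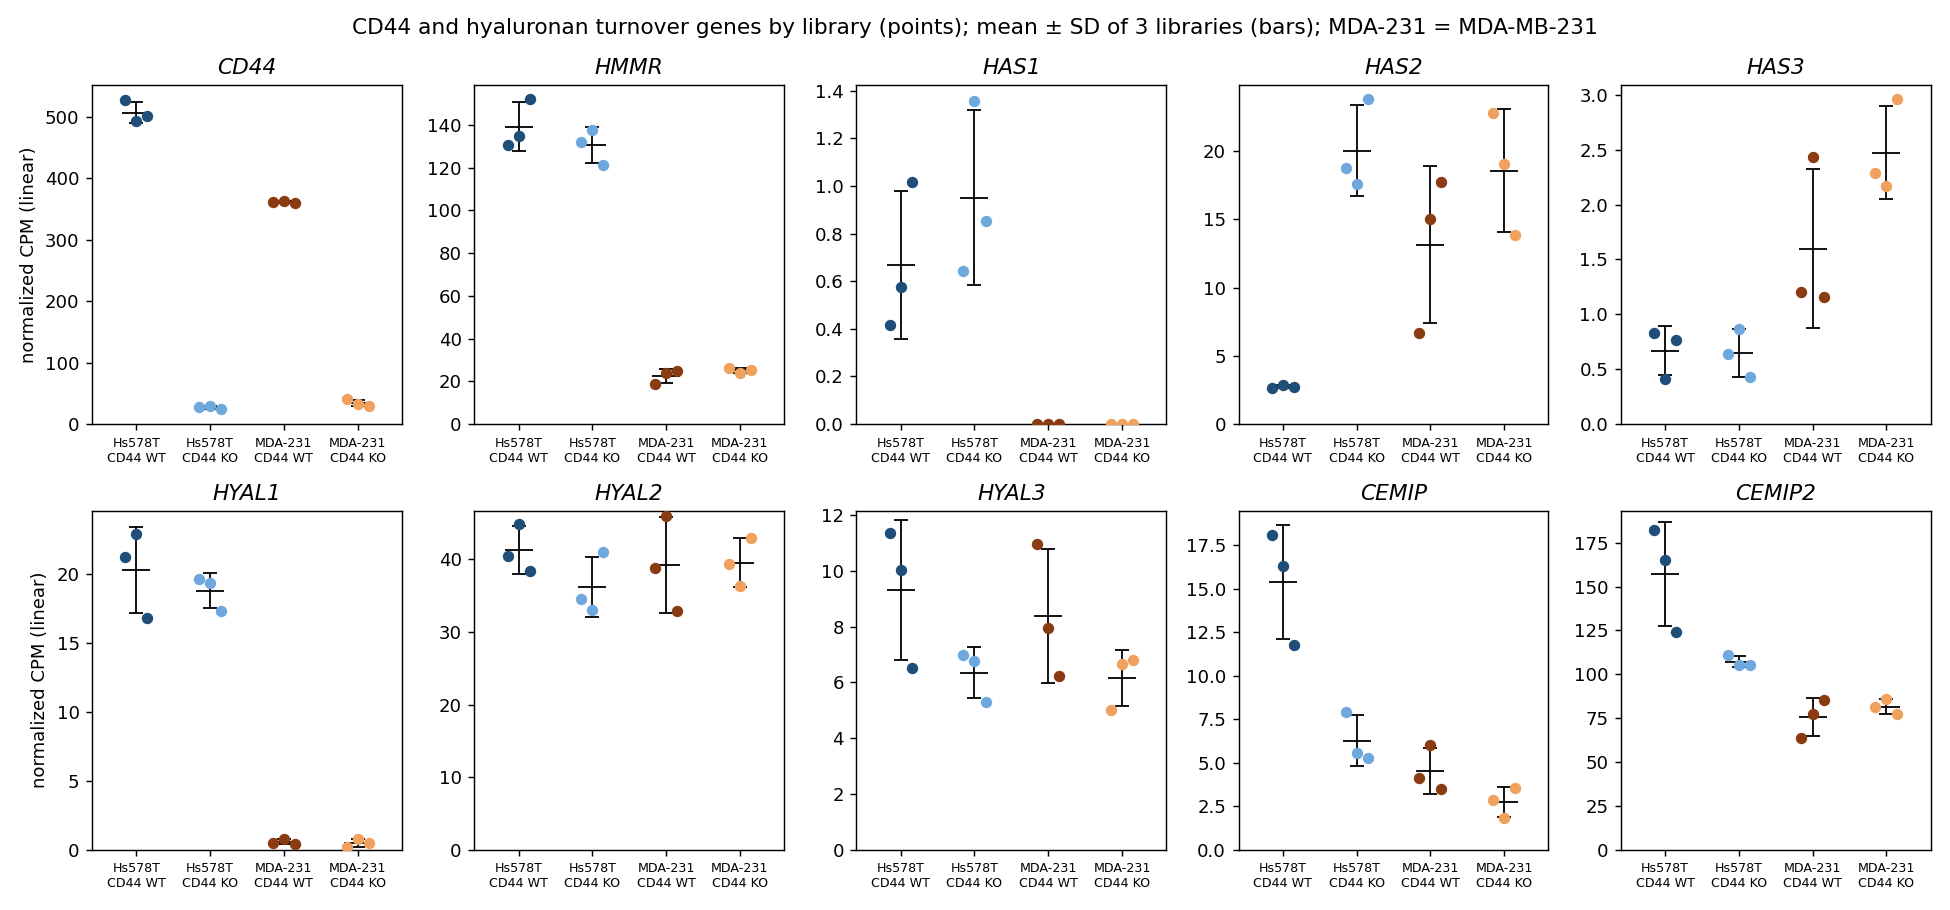
Normalized CPM on linear axes from 0 for the 10 genes, 1 panel each, with 1 point per library and bars for the mean ± SD of the 3 libraries of each group. CD44 is low in both CD44 KO groups, HAS2 is low only in Hs578T CD44 WT (2.64 to 2.88 CPM), HYAL1 and HMMR separate the lines, and HAS1 is at 0 in all MDA-MB-231 libraries.

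In Hs578T, 4 of the 10 genes passed the threshold in CD44 KO against CD44 WT: HAS2 was higher, and CD44, CEMIP and CEMIP2 were lower. CD44 was the edited gene and the cells were sorted on it, so its call in each line was set by the design. Of all 15836 genes tested, 7.51% passed in this line, 3.64% higher and 3.86% lower. In MDA-MB-231, CD44 alone of the 10 passed, where 4.62% of all genes did, 1.97% higher and 2.65% lower. The test of the difference between the lines passed for CD44 and HAS2, where 4.12% of all genes did, 2.33% with the higher value in Hs578T and 1.79% with the lower. In Hs578T the 10 genes, CD44 included, had a median log2 fold change of -0.15, beside -0.0016 over all genes tested. In MDA-MB-231 the medians were 0.0040 for the 10 genes and -0.0096 for all genes. HAS1, with 0 counts in every MDA-MB-231 library, entered at 0, and the median of the other 9 was 0.0080.

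**Figure D2:**
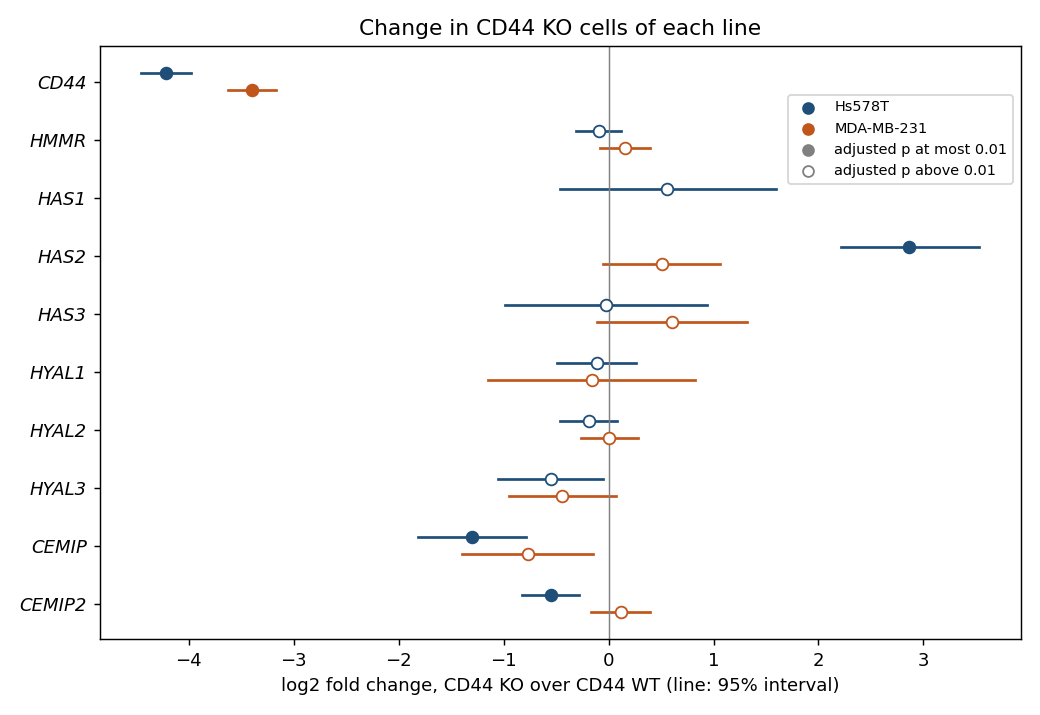
Log2 fold change (CD44 KO over CD44 WT) for each gene in Hs578T (blue) and MDA-MB-231 (orange), with lines for the 95% interval and filled points for an adjusted p of at most 0.01. HAS2 stands at 2.86 in Hs578T and at 0.50 in MDA-MB-231, and HAS1 is drawn for Hs578T only because MDA-MB-231 had 0 counts.

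Among the synthases, HAS2 alone passed in a KO comparison. HAS2 (ENSG00000170961.6) is on the minus strand of chromosome 8, and its enzyme is the synthase best known for making long hyaluronan chains. In Hs578T CD44 WT it was counted 38, 35 and 32 times, or 2.64, 2.88 and 2.71 CPM. In Hs578T CD44 KO it was counted 234, 285 and 279 times, or 18.8, 17.6 and 23.8 CPM. Every CD44 KO library thus lay above every CD44 WT library, and the replicates within each group lay close together. HAS2 was 7.28-fold higher in CD44 KO (95% interval 4.63 to 11.5, log2 fold change 2.86, SE 0.309, adjusted p = 1.73e-05).

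In MDA-MB-231, HAS2 was at 6.68 CPM in CD44 WT replicate 1, 15.004 CPM in replicate 3 and 17.7 CPM in the library without a replicate number. The CD44 KO libraries had 22.8, 19.1 and 13.8 CPM, so the groups overlapped, and the CD44 WT libraries of this line were spread far more than those of Hs578T. The log2 fold change of 0.50 did not pass (95% interval -0.05 to 1.06, adjusted p = 0.264). Leaving out 1 library moved it between 0.19, without CD44 WT replicate 1, in which HAS2 was lowest, and 0.77, without the CD44 WT library that has no number, and it passed in none of these fits. The change in Hs578T exceeded that in MDA-MB-231 by 2.36 on the log2 scale (95% interval 1.497 to 3.23, adjusted p = 0.00182).

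The starting levels of HAS2 also differed, with 4.78-fold less in Hs578T CD44 WT than in MDA-MB-231 CD44 WT (log2 fold change -2.26, adjusted p = 1.09e-05). This comparison uses the same CD44 WT libraries as the changes above. Hs578T CD44 KO, at 20.05 ± 3.30 CPM (mean ± SD, n = 3), reached the range of the MDA-MB-231 groups, which had 13.1 ± 5.75 CPM in CD44 WT and 18.6 ± 4.50 CPM in CD44 KO.

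HAS2-AS1 (ENSG00000248690.6), a noncoding RNA from the opposite strand that shares 201 exon bases with HAS2, was counted separately by strand. It had 5, 7 and 1 counts in Hs578T CD44 WT and 15, 22 and 21 counts in Hs578T CD44 KO. Its log2 fold change was 2.06 in Hs578T (SE 0.445, adjusted p = 0.00492) and 0.51 in MDA-MB-231 (adjusted p = 0.593). The Hs578T call rests on few counts and was lost in 7 of 24 alternatives, with adjusted p up to 0.0244.

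HAS1 and HAS3 remained near the limit of detection. HAS1 (ENSG00000105509.10, chromosome 19, 51713112 to 51723994, minus strand) had 6, 7 and 12 counts in Hs578T CD44 WT and 8, 22 and 10 counts in CD44 KO, which overlap (log2 fold change 0.56, 95% interval -0.46 to 1.598, adjusted p = 0.492). In MDA-MB-231 it had 0 counts in all 6 libraries. With MDA-MB-231 CD44 WT set to a floor of 3 counts in all, HAS1 was at least 7.65-fold higher in Hs578T CD44 WT than in MDA-MB-231 CD44 WT (adjusted p = 6.29e-04). HAS1 met the filter on low counts only through Hs578T CD44 WT replicate 3 (12 counts) and Hs578T CD44 KO replicate 2 (22 counts). Its call between the lines thus rests on few counts, all in the line through which it came to be tested.

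HAS3 (ENSG00000103044.10, chromosome 16, 69105564 to 69118719, plus strand) was counted 5 to 14 times per library in Hs578T, while the MDA-MB-231 libraries held 13 to 41 counts. The KO changes did not pass, at -0.03 on the log2 scale in Hs578T (95% interval -0.99 to 0.93) and 0.60 in MDA-MB-231 (95% interval -0.11 to 1.31, adjusted p = 0.300). HAS3 was 2.36-fold lower in Hs578T CD44 WT than in MDA-MB-231 CD44 WT, just short of the threshold (adjusted p = 0.0110).

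Levels of different genes were compared as CPM per kilobase of exon, with the exon length taken over all transcripts of a gene. The 3 synthases together had 1.08 ± 0.145 CPM per kilobase in Hs578T CD44 WT and 5.33 ± 0.703 in CD44 KO (mean ± SD, n = 3). In MDA-MB-231 the sums were 3.44 ± 1.41 and 4.90 ± 1.01, and these groups overlapped. HAS2 made up 61.3% ± 8.18 of the sum in Hs578T CD44 WT and 89.6% ± 4.38 in CD44 KO, whereas its share in MDA-MB-231 was 90.4% ± 4.07 and 89.9% ± 3.89.

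CEMIP, a hyaluronan-binding protein needed for depolymerization in fibroblasts, moved the other way in Hs578T. Its gene (ENSG00000103888.16) is found at 80779343 to 80951776 of chromosome 15, plus strand. It stood at 18.1, 16.3 and 11.8 CPM in Hs578T CD44 WT and at 7.94, 5.55 and 5.29 CPM in CD44 KO, with no overlap. It was 2.47-fold lower in CD44 KO (log2 fold change -1.30, SE 0.242, adjusted p = 0.00192). The call was lost in 4 of the 12 fits that leave out 1 library, with adjusted p = 0.0140 without Hs578T CD44 WT replicate 1, 0.0110 without CD44 WT replicate 2, 0.0167 without CD44 KO replicate 2 and 0.0160 without CD44 KO replicate 3.

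In MDA-MB-231, CEMIP had 4.11, 6.002 and 3.47 CPM in CD44 WT and 2.88, 1.85 and 3.56 CPM in CD44 KO. These groups overlapped, and the log2 fold change of -0.77 did not pass (95% interval -1.40 to -0.15, adjusted p = 0.120). The difference between the lines was -0.53 on the log2 scale and did not pass (95% interval -1.34 to 0.28, adjusted p = 0.432), so no difference in the response of CEMIP between the lines was shown. Its level was 3.38-fold higher in Hs578T CD44 WT than in MDA-MB-231 CD44 WT (adjusted p = 1.44e-05).

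CEMIP2 (ENSG00000135048.13, chromosome 9, 71683366 to 71816690, minus strand), the membrane protein also called TMEM2, was far more abundant than CEMIP. It had 182, 165 and 124 CPM in Hs578T CD44 WT and 111, 105 and 105 CPM in CD44 KO. The groups did not overlap, although CD44 WT replicate 3 lay near the CD44 KO libraries. The level in CD44 KO was 1.47-fold lower (log2 fold change -0.55, SE 0.128, adjusted p = 0.00854), close to the threshold.

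The CEMIP2 call was lost in 9 of the 12 fits without 1 library, with adjusted p up to 0.0585 without Hs578T CD44 WT replicate 1. Only the fits without Hs578T CD44 WT replicate 3, MDA-MB-231 CD44 WT replicate 1 or the MDA-MB-231 CD44 WT library without a number kept it. In MDA-MB-231 the log2 fold change was 0.11 (95% interval -0.16 to 0.39, adjusted p = 0.658). The difference between the lines, -0.67 on the log2 scale, did not pass (adjusted p = 0.0305). CEMIP2 was 2.08-fold higher in Hs578T CD44 WT than in MDA-MB-231 CD44 WT (adjusted p = 2.74e-06).

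The ratio of HAS2 to CEMIP, each in CPM per kilobase, sets a synthase beside a protein of breakdown in the same library. It was 0.265, 0.322 and 0.419 in Hs578T CD44 WT and 4.30, 5.76 and 8.18 in Hs578T CD44 KO. In MDA-MB-231 it was 2.96, 4.55 and 9.28 in CD44 WT and 14.4, 18.7 and 7.07 in CD44 KO. CEMIP thus exceeded HAS2 in the 3 Hs578T CD44 WT libraries and lay below it in the other 9 libraries. The ratio combines the 2 genes described above and is no further test of either.

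**Figure D3:**
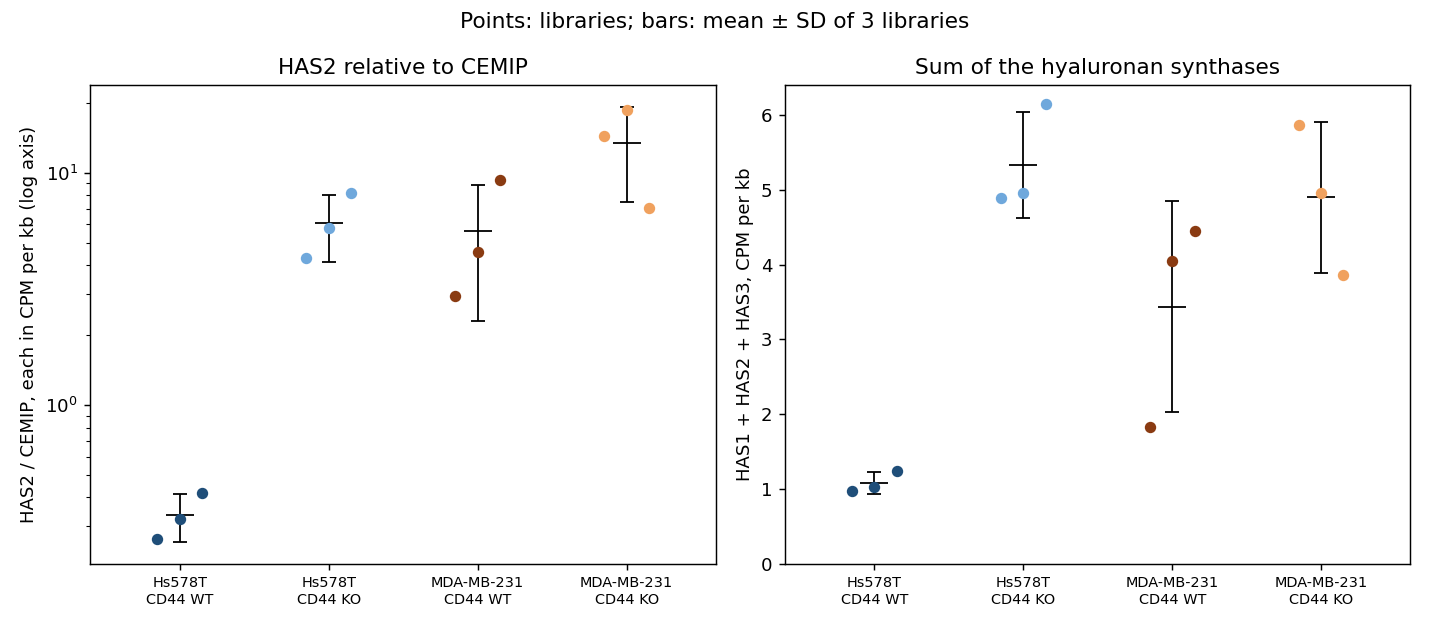
Left, the ratio of HAS2 to CEMIP in CPM per kilobase on a log axis, and right, the sum of the 3 synthases in CPM per kilobase from 0, with 1 point per library and bars for the mean ± SD of 3 libraries. Hs578T CD44 WT lies lowest in both panels, at a mean ratio of 0.335 and a mean sum of 1.08.

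The hyaluronidases did not pass in either KO comparison, and HYAL1 separated the lines. HYAL1 (ENSG00000114378.16, chromosome 3, 50299889 to 50312381, minus strand) encodes the lysosomal enzyme. It had 21.2, 22.9 and 16.8 CPM in Hs578T CD44 WT and 19.7, 19.4 and 17.3 CPM in CD44 KO. In MDA-MB-231 it had 5 to 10 counts in CD44 WT libraries, at most 0.811 CPM, and 2 to 15 counts in CD44 KO libraries. The 2 lines did not overlap in any library, and HYAL1 was 33.6-fold higher in Hs578T CD44 WT than in MDA-MB-231 CD44 WT (95% interval 22.7 to 51.4, adjusted p = 2.63e-10). In CD44 KO its log2 fold change reached -0.11 in Hs578T (95% interval -0.49 to 0.27) and -0.16 in MDA-MB-231 (95% interval -1.15 to 0.82), the wider interval coming with the lower counts.

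HYAL2 (ENSG00000068001.13, chromosome 3, 50317790 to 50322906, minus strand), the enzyme anchored at the cell surface, had the most even level of the hyaluronidases. Its 12 libraries ranged from 32.9 to 46.0 CPM, and the group means from 36.2 to 41.3 CPM. The log2 fold change in CD44 KO was -0.19 in Hs578T (95% interval -0.46 to 0.08) and 0.01 in MDA-MB-231 (95% interval -0.26 to 0.28), intervals that leave out a change of 1 in either direction. HYAL2 shares 509 exon bases on the same strand with TUSC2, where reads of the genes could not be told apart and were not counted.

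HYAL3 (ENSG00000186792.16, chromosome 3, 50292831 to 50299468, minus strand), a family member whose own enzyme activity is uncertain, had 11.4, 10.0 and 6.52 CPM in Hs578T CD44 WT and 6.98, 6.78 and 5.29 CPM in CD44 KO. In MDA-MB-231 it had 10.97, 7.95 and 6.24 CPM in CD44 WT and 4.998, 6.67 and 6.81 CPM in CD44 KO. The groups overlapped in both lines. The log2 fold changes of -0.55 (adjusted p = 0.138) and -0.44 (adjusted p = 0.287) did not pass. HYAL3 shares exon bases on the same strand with NAA80 (248 bases) and IFRD2 (43 bases), so its count is uncertain there.

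HYAL1 made up 32.1% ± 0.763 of the summed CPM per kilobase of HYAL1, HYAL2 and HYAL3 in Hs578T CD44 WT and 1.45% ± 0.332 in MDA-MB-231 CD44 WT (mean ± SD, n = 3). In CD44 KO the shares were 35.1% ± 2.48 and 1.30% ± 0.862.

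In the comparison of CD44 WT cells, 7 of the 10 genes passed, where 61.5% of all genes did, 32.2% higher and 29.4% lower in Hs578T, so a call in this comparison is common. CD44, HAS1, HYAL1, CEMIP, CEMIP2 and HMMR were higher in Hs578T, and HAS2 was lower. HAS1 and HYAL1 met the filter on low counts through Hs578T libraries only. CD44 itself was 1.40-fold higher in Hs578T (95% interval 1.22 to 1.62, adjusted p = 2.76e-04).

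In order of level per kilobase, Hs578T CD44 WT had CD44 highest at 50.7 ± 1.76 CPM per kilobase, then HMMR, CEMIP2, HYAL2, HYAL1, HYAL3, CEMIP, HAS2, HAS1 and HAS3, the last at 0.126 ± 0.0426. Only the neighbours HYAL1 and HYAL3 overlapped between libraries. In MDA-MB-231 CD44 WT the order was CD44 at 36.1 ± 0.170, HYAL2, CEMIP2, HMMR, HYAL3, HAS2, CEMIP, HAS3, HYAL1 and HAS1. There the neighbours HYAL2 and CEMIP2, HMMR and HYAL3, HYAL3 and HAS2, CEMIP and HAS3, and HAS3 and HYAL1 overlapped. In Hs578T CD44 KO, HAS2 at 4.78 ± 0.788 CPM per kilobase stood above HYAL3 and above the remaining CD44 at 2.73 ± 0.206. The order of HAS2 and CD44 there depends on the exon length, 4190 nt for HAS2 and 10004 nt for CD44. Not divided by length, CD44 was higher, at 27.3 CPM beside 20.05 CPM for HAS2.

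**Figure D4:**
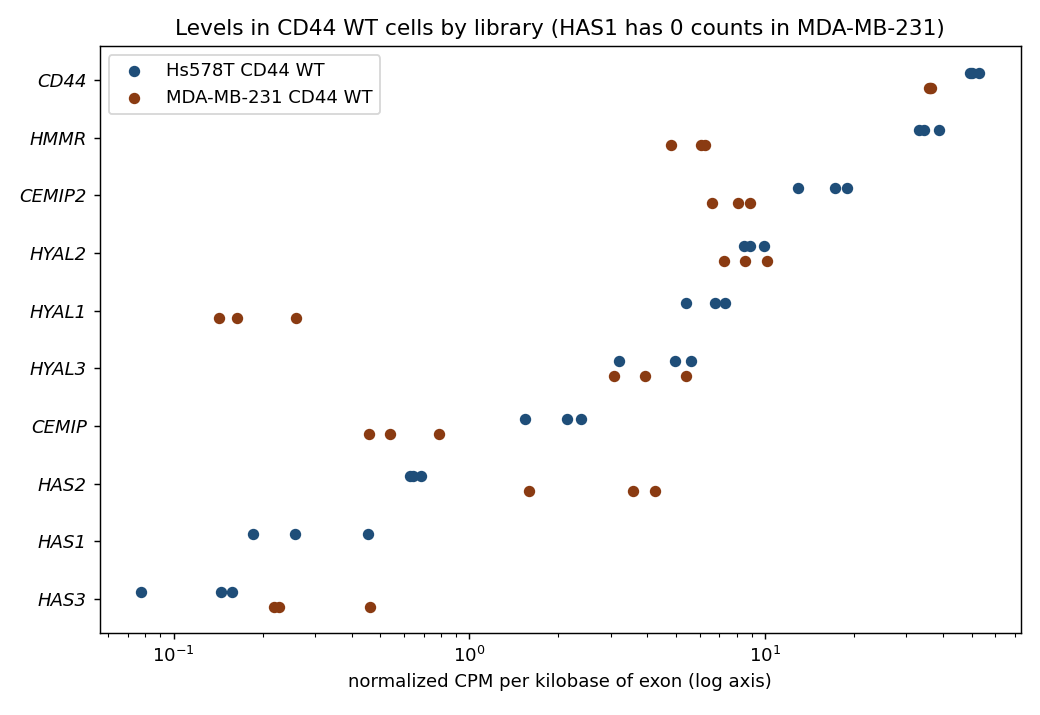
Level of each gene in CPM per kilobase of exon, on a log axis, in the 3 CD44 WT libraries of Hs578T (blue) and of MDA-MB-231 (brown). CD44 is highest in both lines, HYAL1 and HMMR lie to the right in Hs578T, and HAS2 lies to the right in MDA-MB-231.

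HMMR (ENSG00000072571.19, chromosome 5, 163460203 to 163491945, plus strand) had 131, 135 and 152 CPM in Hs578T CD44 WT and 132, 138 and 121 CPM in CD44 KO. In MDA-MB-231 it had 18.9, 23.9 and 24.7 CPM in CD44 WT and 26.1, 24.0 and 25.3 CPM in CD44 KO. Neither KO change passed, at -0.09 on the log2 scale in Hs578T (95% interval -0.31 to 0.12) and 0.16 in MDA-MB-231 (95% interval -0.08 to 0.40). Between the CD44 WT cells, HMMR was 6.19-fold higher in Hs578T (95% interval 5.26 to 7.29, log2 fold change 2.63, adjusted p = 1.46e-11).

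Other genes of the mitotic spindle, with which HMMR is usually expressed in dividing cells, lay in a narrower range between the lines. Of 16 such genes, 3 were higher and 5 lower in Hs578T CD44 WT, with log2 fold changes from -0.96 to 0.39, where 61.5% of all genes passed. The median was -0.03, beside 0.04 over all genes tested, and with library size alone as the scaling it was 0.09, beside 0.16. The lowest were CCNB1, KIF11 and AURKA, which drive entry into and passage through mitosis. TPX2, the spindle protein that HMMR binds, had 691 CPM in Hs578T CD44 WT and 746 CPM in MDA-MB-231 CD44 WT and did not pass (adjusted p = 0.205). HMMR per kilobase was 18.4% ± 0.392 of TPX2 in Hs578T CD44 WT and 2.75% ± 0.235 in MDA-MB-231 CD44 WT (mean ± SD, n = 3).

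**Figure D5:**
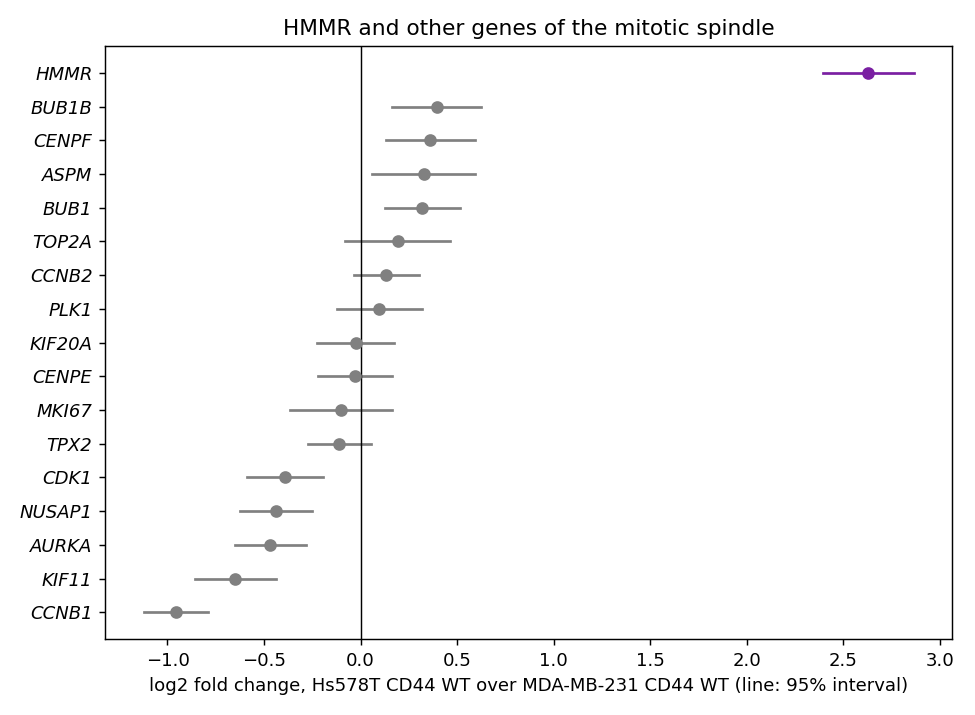
Log2 fold change of Hs578T CD44 WT over MDA-MB-231 CD44 WT for HMMR (purple) and 16 other genes of the mitotic spindle (grey), with lines for the 95% interval. HMMR is at 2.63, and the other genes lie between -0.96 and 0.39.

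In CD44 KO against CD44 WT, none of the 16 spindle genes passed in Hs578T by edgeR, where 7.51% of all genes did. An unadjusted p under 0.05 was found for 5 of them, where 27.4% of all genes had one, and DESeq2 called 1, where it called 9.81% of all genes. All 16 had log2 fold changes below 0, from -0.31 to -0.0018 (15 of 16 with RLE scaling factors). Their median was -0.18, beside -0.0016 over all genes tested. Their summed level was 4642 to 4885 CPM in the CD44 WT libraries and 4080 to 4357 CPM in the CD44 KO libraries, without overlap. The shares of all genes that were below 0 or did not overlap were not counted, so both are a description only. In MDA-MB-231, CDK1, the kinase that starts mitosis, was the 1 gene that passed by edgeR, where 4.62% of all genes did. An unadjusted p under 0.05 was found there for 4 (23.4% of all genes), and DESeq2 called 2 (7.19% of all genes). CDK1 rose from 138, 156 and 162 CPM to 240, 223 and 229 CPM (log2 fold change 0.60, adjusted p = 6.19e-04).

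The enzymes that supply the sugar nucleotides for hyaluronan did not pass in the KO comparisons. Of 15 such genes tested, edgeR called 0 in either line, 5 had an unadjusted p under 0.05 in each line, where the Hs578T share of all genes was 27.4% and the MDA-MB-231 share 23.4%. DESeq2 called 3 in Hs578T, beside 9.81% of all genes, and 2 in MDA-MB-231, beside 7.19%. Hs578T had a median of -0.0037 over these genes on the log2 scale, and MDA-MB-231 one of 0.044. Between the CD44 WT cells 3 were higher and 7 lower in Hs578T, where 61.5% of all genes passed. HK2, a hexokinase at the entry of glucose use, had 35.6 CPM in Hs578T CD44 WT and 354 CPM in MDA-MB-231 CD44 WT (log2 fold change -3.32, adjusted p = 2.87e-09). UAP1 and GNPNAT1, which act in the route to UDP-N-acetylglucosamine, were also lower in Hs578T, with log2 fold changes of -1.41 and -1.30.

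Of 24 genes for other proteins that bind hyaluronan, 8 were expressed well enough to be tested. In the KO comparisons edgeR and DESeq2 called 0 of these 8 in either line, and 4 in Hs578T and 0 in MDA-MB-231 had an unadjusted p under 0.05, beside the same 27.4% and 23.4% of all genes. Only 6 of the 8 in Hs578T and 7 in MDA-MB-231 had more than 3 counts in at least 1 group of that line. The others could not show a change there. Between the CD44 WT cells 1 of the 8 was higher and 4 were lower in Hs578T, a share near the 61.5% of all genes. VCAN, a large matrix proteoglycan that hyaluronan holds in place, had 236 CPM in Hs578T CD44 WT and 0.172 CPM in MDA-MB-231 CD44 WT (adjusted p = 1.67e-13). LAYN, a membrane receptor for hyaluronan, had 0 counts in Hs578T CD44 WT and 51.4 CPM in MDA-MB-231 CD44 WT, at least 658-fold higher with Hs578T CD44 WT set to the same floor of 3 counts. TLR2, an innate immune receptor, was at least 17.8-fold higher in MDA-MB-231 CD44 WT on the same floor. LAYN and TLR2 met the filter on low counts through MDA-MB-231 libraries only, and VCAN through Hs578T libraries only. Each was thus tested through the line in which it was higher.

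Among 5 other genes of hyaluronan breakdown, 3 were tested. By edgeR 2 of them passed in MDA-MB-231, where 4.62% of all genes did, and 0 in Hs578T, where 7.51% did. In Hs578T 1 had an unadjusted p under 0.05 (27.4% of all genes), and DESeq2 called 1 (9.81% of all genes). In MDA-MB-231 these counts were 2 and 2, beside 23.4% and 7.19% of all genes. The gene that passed by edgeR in neither line had a log2 fold change of 0.03 in MDA-MB-231. GUSB and HEXA encode lysosomal enzymes that remove single sugars from the ends of its fragments. GUSB had 72.7, 61.4 and 52.5 CPM in MDA-MB-231 CD44 WT and 98.1, 100.3 and 112 CPM in CD44 KO, with no overlap (log2 fold change 0.73, adjusted p = 4.61e-04). In Hs578T its log2 fold change was -0.10 (adjusted p = 0.605), and the difference between the lines passed (-0.84, adjusted p = 0.00298). HEXA rose in MDA-MB-231 (0.44, adjusted p = 0.00796) and had a similar value in Hs578T that did not pass (0.38, adjusted p = 0.0120).

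Of 10 genes for the cleavage of CD44, 9 were tested. Of these edgeR called 0 in Hs578T, where 7.51% of all genes passed. An unadjusted p under 0.05 was found there for 2 (all genes 27.4%), and DESeq2 called 0 (all genes 9.81%). In MDA-MB-231, 3 had an unadjusted p under 0.05 (all genes 23.4%) and DESeq2 called 2 (all genes 7.19%). The log2 fold changes in that line ran from -0.57 to 0.52, and 4.62% of all genes passed by edgeR. The 1 gene called there by edgeR was ADAM17, a membrane protease that sheds surface proteins, which fell from 77.0, 94.2 and 105 CPM to 52.9, 68.1 and 64.6 CPM (log2 fold change -0.57, adjusted p = 0.00547). The difference between the lines did not pass for ADAM17 (adjusted p = 0.155).

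Of 10 genes for other CD44 ligands, CD44 partners and regulators of CD44 splicing, 7 were tested. For Hs578T, edgeR called 2 of these 7, where 7.51% of all genes passed. DESeq2 also called 2 (9.81% of all genes), and 2 had an unadjusted p under 0.05 by edgeR (27.4%). The MDA-MB-231 comparison likewise had 2 calls by edgeR (4.62% of all genes) and 2 by DESeq2 (7.19%). By edgeR, 2 had an unadjusted p under 0.05 there (23.4%). In Hs578T CD74, a surface protein that pairs with CD44 for the cytokine MIF, fell from 31, 26 and 10 counts to 4, 6 and 5 counts (log2 fold change -2.19, adjusted p = 0.00488). CD74 met the filter on low counts only through CD44 WT replicates 1 and 2 of Hs578T, in the group where it was higher. The epithelial splicing factor ESRP1, which keeps variable exons in CD44, rose in Hs578T from 5.06, 4.11 and 4.74 CPM to 7.46, 11.04 and 8.79 CPM (log2 fold change 0.97, adjusted p = 0.00492). Its paralog ESRP2 fell in MDA-MB-231 from 24.3, 20.03 and 17.4 CPM to 8.98, 7.79 and 8.79 CPM (log2 fold change -1.28, adjusted p = 3.25e-04). SRGN, which encodes the proteoglycan core protein serglycin, rose in MDA-MB-231 (0.60, adjusted p = 0.00582). The difference between the lines passed for none of these 7 by edgeR or DESeq2, and 3 had an unadjusted p under 0.05, beside 24.6% of all genes for edgeR and 7.59% called by DESeq2.

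Several of these calls changed when 1 library was left out. In Hs578T the CD74 call was lost without any 1 CD44 KO library (adjusted p up to 0.0283), and the ESRP1 call without any 1 CD44 WT library or without CD44 KO replicate 2 or 3 (up to 0.0418). Without CD44 WT replicate 1 or 2 of Hs578T, CD74 was not tested. In MDA-MB-231 the HEXA call was lost in 9 of the 12 fits that leave out 1 library and was kept only without Hs578T CD44 WT replicate 2, Hs578T CD44 KO replicate 3 or MDA-MB-231 CD44 WT replicate 1 (adjusted p up to 0.0446). The ADAM17 call was lost in 7 of these fits, without Hs578T CD44 WT replicate 2, Hs578T CD44 KO replicate 3 or any 1 MDA-MB-231 library other than CD44 WT replicate 1 (up to 0.0266). The SRGN call was lost in 5, without Hs578T CD44 KO replicate 1 or without replicate 1 or 3 of MDA-MB-231 CD44 WT or 1 or 2 of MDA-MB-231 CD44 KO (up to 0.0273). GUSB, ESRP2 and CDK1 kept their MDA-MB-231 calls in all 12.

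The genes beside CD44 on chromosome 11 did not pass in either line. PDHX, a subunit of pyruvate dehydrogenase, had a log2 fold change of 0.29 in Hs578T (adjusted p = 0.0331) and -0.34 in MDA-MB-231 (adjusted p = 0.0204), and the difference between the lines passed (0.64, adjusted p = 0.00396), but not in 7 of the 12 fits that leave out 1 library. SLC1A2, a glutamate transporter, had 0.73 in Hs578T (adjusted p = 0.157). In MDA-MB-231 it had 1 count over the CD44 WT libraries and 2 over the CD44 KO libraries, too few to compare.

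The genes with the profile nearest to CD44, HAS2, CEMIP and HMMR over the 12 libraries were found among 11226 genes with a mean of at least 5 CPM, by the root mean square difference of centred log2 CPM. Since the profiles follow 4 groups, the distances are a description only. Nearest to CD44 were RNF144A (distance 0.925 on the log2 scale), GPC4 (1.08) and INHBB (1.13), beside a root mean square of 1.92 for CD44 itself. RNF144A had group means of 12.9 and 3.38 CPM in Hs578T CD44 WT and CD44 KO and of 17.2 and 3.27 CPM in MDA-MB-231.

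Nearest to HAS2 were TOX (0.403), GJA1 (0.470) and RBMS3 (0.533), beside a root mean square of 1.17 for HAS2. GJA1, which encodes the gap junction protein connexin 43, had 8.38 CPM in Hs578T CD44 WT and 31.1 CPM in CD44 KO, and 34.7 and 41.7 CPM in MDA-MB-231. TOX, a nuclear HMG-box protein, had 2.27 and 15.9 CPM in Hs578T and 8.87 and 9.70 CPM in MDA-MB-231, and RBMS3, an RNA-binding protein, had 1.31 and 13.4 CPM and 10.7 and 12.4 CPM. All 3 were lowest in Hs578T CD44 WT, as HAS2 was, which follows from choosing them by its profile.

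Nearest to CEMIP were TNFSF9 (0.325), BCL2L11 (0.351) and GPR162 (0.355), beside 0.939 for CEMIP. TNFSF9, the ligand of the costimulatory receptor 4-1BB, had 67.3 and 31.9 CPM in Hs578T CD44 WT and CD44 KO and 15.8 and 11.6 CPM in MDA-MB-231. Nearest to HMMR were LAMB1 (0.147), TBC1D16 (0.157) and PGRMC1 (0.160), beside 1.26 for HMMR. LAMB1, a laminin chain, had 612 and 586 CPM in Hs578T CD44 WT and CD44 KO and 102 and 137 CPM in MDA-MB-231.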

How the data were processed

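The authors aligned paired-end reads of stranded mRNA libraries to GRCh38 with HISAT2 2.1.0 and counted fragments by strand with featureCounts 1.6.2 on GENCODE version 28, and the deposited counts are whole numbers per gene, not normalized. Gene names were matched for 57754 of 58381 identifiers. The group of 1 MDA-MB-231 CD44 WT library was known but not its replicate number.

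All 12 libraries entered 1 fit in R 4.3.3 with edgeR 4.0.16 (glmQLFit in its legacy form and glmQLFTest after TMM scaling, Benjamini-Hochberg adjustment), with a mean per group. CPM were scaled by TMM, and log2 CPM of single libraries used a prior count of 2. Calls needed an adjusted p of at most 0.01. The length filter of at least 300 nt reverses the wording of the study's methods. Fitted folds depend on the default prior count, and folds against 0 counts use a floor of 3 counts. An exact permutation test of 3 against 3 libraries cannot go below 0.1. The fit was tested on simulated counts.

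The genes named are the 10 genes, the neighbours PDHX and SLC1A2, genes whose exons overlap a member, up to 3 called genes with the largest change per list and comparison, and the 3 nearest profiles of 4 genes. TPX2 was added for context after its values were seen. Other hyaluronan-related lists followed known roles. The 10 genes and these lists were chosen with earlier results of these data known. Replicate numbers were checked for pairing: deviations of same-numbered libraries correlated from -0.0957 to 0.164. Alternatives were DESeq2 1.42.0, other scaling, filters, thresholds and fits, blocks and each library left out.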

Additional observations from a re-analysis of the deposited data

Results flagged for a closer look

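With 3 libraries per group, single libraries were not tested as outliers. By edgeR's test of the difference, 5 of the genes named passed, given as the Hs578T change minus the MDA-MB-231 change on the log2 scale. Of all genes tested, 4.12% passed. GUSB and CDK1 were among the genes named because they were called, also in this test, so the count is a description only. HAS2 differed by 2.36 (adjusted p = 0.00182), with all 3 Hs578T CD44 KO libraries above the CD44 WT libraries and overlapping groups in MDA-MB-231. CD44 differed by -0.81 (adjusted p = 0.00198), lower in all 3 CD44 KO libraries of each line. GUSB differed by -0.84 (adjusted p = 0.00298) and CDK1 by -0.70 (adjusted p = 0.00322), both higher in all 3 CD44 KO libraries of MDA-MB-231. The GUSB difference missed the threshold without Hs578T CD44 KO replicate 2 (adjusted p = 0.0107), and the CDK1 difference without any 1 Hs578T CD44 KO library (adjusted p up to 0.0119). PDHX, beside CD44, differed by 0.64 (adjusted p = 0.00396), with all 3 CD44 KO libraries higher in Hs578T and all 3 lower in MDA-MB-231. It missed the threshold without replicate 1 or 2 of Hs578T CD44 WT, 1 or 2 of Hs578T CD44 KO, 3 of MDA-MB-231 CD44 WT, or 2 or 3 of MDA-MB-231 CD44 KO (adjusted p up to 0.0168).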

How the results depend on the processing

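Over 12 alternatives other than leaving out a library, 764 of 808 values of single genes kept their direction and their side of the threshold, 32 lost a call, 8 gained one and 4 turned direction. In Hs578T, HAS2 kept its call in 24 of 24 alternatives (log2 fold change 2.74 to 2.95, adjusted p up to 2.69e-04), CEMIP lost it in 4 and CEMIP2 in 11, and CD44 kept it in both lines. Leaving out 1 library gave 2 to 4 of the 10 genes called in Hs578T and 2 to 3 for the difference between the lines. A minimum log2 fold change of 1 left 1 gene for that difference, HAS2. The same difference for CEMIP2 passed with DESeq2 (adjusted p = 0.00990) and without a filter on low counts (adjusted p = 6.88e-04), and HAS3 between the CD44 WT cells passed without that filter (adjusted p = 0.00661). The cause of these moves was not tested. The newer form of the edgeR fit, an alternative chosen after seeing the data, changed no direction and no call of the genes named, and called 1302, 781 and 625 genes over all genes in Hs578T, MDA-MB-231 and the difference.

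With the replicate block, which left out the library without a number, the difference between the lines also passed for 1 gene, CD44, since HAS2 missed the threshold (2.01, adjusted p = 0.0115). Hs578T then had 3 genes called, and over all genes the MDA-MB-231 count went from 731 to 436. HYAL2 turned to -0.080 for MDA-MB-231 CD44 KO and -0.013 between the CD44 WT cells, and HYAL3 to -0.084 between the CD44 WT cells and 0.12 for the difference. The block of consecutive label numbers changed none of the 4 counts of the 10 genes. The numbers did not meet the rule for pairs.

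Log2 fold changes that crossed 0 when 1 library was left out, with adjusted p of 0.144 or more, were HAS3 in Hs578T (-0.32 to 0.19), HYAL1 and HYAL2 in MDA-MB-231 (-0.87 to 0.19 and -0.10 to 0.14), HYAL2 and HYAL3 between the CD44 WT cells (-0.041 to 0.20 and -0.017 to 0.40), and HYAL1 and HYAL3 for the difference (-0.31 to 0.76 and -0.35 to 0.062).

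Over all genes, the counts in Hs578T, MDA-MB-231 and the difference between the lines were 1189, 731 and 653. They were 1984, 1370 and 1373 without the filter, 2253, 1518 and 1670 with the threshold on the adjusted p raised to 0.05, and 744, 328 and 468 with a log2 fold change of at least 1. DESeq2 called 1138 in MDA-MB-231 and 1179 for the difference, each line fitted alone gave 315 in MDA-MB-231, and leaving out 1 library gave 605 to 1685, 355 to 763 and 396 to 804. Library size alone moved the median log2 fold change between the CD44 WT cells from 0.04 to 0.16. All 10 genes passed the filter, so dropping it added none. Low counts limit HAS1, HAS3 and, in MDA-MB-231, HYAL1.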
